A study of Mus musculus with 4 samples.

Results

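The interleukin-1 family and its inhibitors were followed through 4 RNA sequencing libraries of mouse macrophages. The 9 members were taken by gene symbol from 52550 gene entries: the ligands Il1a, Il1b, Il18, Il33 and Il36g, the inhibitors Il1rn, Il18bp and Il1r2, and the receptor chain Il1rap. Of these, 8 were matched through their Ensembl IDs to symbols of GENCODE M21, and Il36g was matched as Il1f9, its older symbol. All 9 passed the filter on low counts, as did 12730 genes in all. The filter asked for at least 1 CPM (counts scaled to library size) in at least 2 libraries, by library totals without TMM factors. The CPM values printed for genes were scaled by the TMM method. Il33 needed an LPS library to pass, since its wild-type unstimulated library had 0 counts.

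The cells were bone marrow-derived macrophages, grown from marrow progenitors of C57BL/6 mice aged 8 to 10 weeks. The mice were miR-7 deficient or wild type, and the cells of each genotype were given LPS, the outer-membrane lipid of bacteria that activates Toll-like receptor 4, at 100 ng/mL for 12 hours, or were left unstimulated. Each of the 4 groups held 1 library, and the sources used here do not say with what allele the deficiency was produced, in which cells, or whether cells of several mice were pooled. All 10 macrophage markers listed were present in every library, summing to 14360 CPM in deficient and 12720 CPM in wild-type cells with LPS, against 23166 CPM in deficient and 22688 CPM in wild-type cells without it. Most of this sum was Lyz2, and with LPS 2 of the 10 rose and 4 fell. Of 10 neutrophil markers, 3 (Ly6g, Elane and Retnlg) had 0 counts in every library, and the list summed to between 8.06 and 11.1 CPM. B cell markers summed to at most 0.347 CPM and T and NK cell markers to at most 0.306 CPM. Of 7 dendritic cell markers, Flt3 had 0 counts in every library, and the list summed to 1540 CPM in deficient and 1450 CPM in wild-type cells with LPS, against 1766 CPM in deficient and 1629 CPM in wild-type cells without it, most of it Itgax. Within that list Ccr7 rose with LPS, to 316 CPM in deficient and 148 CPM in wild-type cells, against 4.08 CPM in deficient and 4.4 CPM in wild-type cells. Xcr1 had 2.11 CPM in deficient and 2.53 CPM in wild-type cells with LPS and 0 counts without it. It passed the filter only through its LPS libraries, so it could be called in no other direction than higher. Of 6 mast cell and basophil markers, 5 had 0 counts in every library, and Cpa3 had 0.641 CPM in deficient and 7.36 CPM in wild-type cells with LPS, against 0.153 CPM in deficient and 1.15 CPM in wild-type cells without it. Erythroid and megakaryocyte markers summed to between 12.0 and 21.4 CPM. The part of such cells in the members' values was not tested. In such bulk RNA, fewer cells that make a transcript and less of it in each cell cannot be told apart.

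Interleukin-1 alpha and beta act on one receptor, in which Il1rap is the second chain, and this complex signals through MyD88 and IRAK kinases to NF-kB. Macrophages are a main source of both after bacterial contact, and they release interleukin-1 beta and interleukin-18 mostly after inflammasome-activated caspase-1 has cut the precursors. The family is held in check by dedicated inhibitors: a receptor antagonist that occupies the receptor without signalling (Il1rn), a decoy receptor (Il1r2) and a soluble protein that binds interleukin-18 (Il18bp). These steps act on proteins, whereas the libraries measured polyadenylated transcripts.

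The series text states that the counts served to find protein-coding genes lowered by miR-7, a microRNA that pairs through its seed with matching sites in the 3′ untranslated regions of transcripts. Both mature forms, as given by RefSeq for GRCm38.p6, are shown because the sites searched in the members are the reverse complement of their shared seed, bases 2 to 8, in capitals.
mmu-miR-7a-5p: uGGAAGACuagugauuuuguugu
mmu-miR-7b-5p: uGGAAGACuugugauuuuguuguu
In the longest annotated 3′ untranslated region, 1 of the 9 members, Il33, held a match of 7 bases or more (to the seed, or to its bases 2 to 7 followed by an A), against 26.4% of 11296 tested genes with such a region. It began at base 1380 after the stop codon, in a region of 1677 bases, and is shown because it is the only such match in a member. The 30 bases printed are chr19:29960409-29960438 on the plus strand of GRCm38, with the match and the A that follows it in capitals.
Il33 site: ggttagctcttaTCTTCCAgtcgaggaaac
Il36g, Il1rn and Il18bp held 1 match of 6 bases each and Il1rap held 2, while Il1a, Il1b, Il18 and Il1r2 held none. A match of 6 bases or longer occurred in 46.4% of the tested genes, so such matches do not set the members apart. The region searched was only 24 bases long in Il1r2. A match describes letters only, and no value here measures binding of miR-7.

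The promoters of Il1a, Il1b and Il33 are shown because these genes had the 3 highest fitted LPS changes among the members. Each window runs from 250 bases before to 50 bases after an annotated start (RefSeq, GRCm38.p6, minus strand for Il1a and Il1b, plus strand for Il33), and capitals mark TATAAA or a match to the AP-1 or C/EBP motif on either strand. Of the annotated starts of Il33, the one with TATAAA close to it is shown.
Il1a promoter, chr2:129309923-129310222: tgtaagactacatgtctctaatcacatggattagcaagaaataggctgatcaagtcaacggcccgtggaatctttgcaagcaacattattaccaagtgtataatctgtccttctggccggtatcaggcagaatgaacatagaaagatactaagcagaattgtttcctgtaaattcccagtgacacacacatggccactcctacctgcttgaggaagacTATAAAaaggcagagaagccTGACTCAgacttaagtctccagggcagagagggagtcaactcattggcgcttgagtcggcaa
Il1b promoter, chr2:129371090-129371389: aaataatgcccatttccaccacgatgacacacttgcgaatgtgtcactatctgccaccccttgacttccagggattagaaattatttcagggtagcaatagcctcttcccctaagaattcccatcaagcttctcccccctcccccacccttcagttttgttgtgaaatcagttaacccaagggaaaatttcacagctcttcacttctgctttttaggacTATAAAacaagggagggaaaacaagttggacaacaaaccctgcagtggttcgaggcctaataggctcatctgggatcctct
Il33 promoter, second of its windows, chr19:29945540-29945839: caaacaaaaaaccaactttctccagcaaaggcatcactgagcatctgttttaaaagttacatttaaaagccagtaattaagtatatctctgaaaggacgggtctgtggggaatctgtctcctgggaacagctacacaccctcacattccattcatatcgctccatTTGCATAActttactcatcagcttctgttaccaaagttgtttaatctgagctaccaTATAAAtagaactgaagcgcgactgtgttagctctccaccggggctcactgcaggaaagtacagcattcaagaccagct
The letters TATAAA, the core of a TATA box, began 32 bases upstream of the start in Il1a, 31 in Il1b and 29 in Il33. On the strand of the gene and between 25 and 35 bases upstream, they occurred in these 3 members, the 9 members having 12 windows in all. Of the 32851 promoter windows in the RefSeq table, 1.75% held them at that place. Il1a also held an AP-1 match 12 bases upstream and Il33 a C/EBP match 85 bases upstream. Searched on both strands over all windows of the same length, TATAAA occurred in 13.6%, the AP-1 motif TGANTCA in 7.81%, the C/EBP motif TTGCNNAA in 10.8%, the interferon-response motif GAAANNGAAA in 3.44% and the NF-kB motif in 8.46%. No window of a member held the NF-kB motif. Among the other members, Il1rn held TGAGTCA 141 bases upstream of one start and TATAAA, on the opposite strand, 15 bases after another, Il18bp held TTGCGGAA 49 bases upstream and Il1rap held GAAAAAGAAA 21 bases after the start. Il18 held TATAAA, on the opposite strand, 175 bases upstream. The window of Il33 that is not shown held TATAAA 203 bases upstream. A missing match says only that the letters are not in these windows.

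With LPS, all 5 ligands and the soluble inhibitors Il1rn and Il18bp rose, while the receptors Il1r2 and Il1rap did not pass the test. In a fit to all 4 libraries (edgeR's quasi-likelihood test, Benjamini-Hochberg adjustment over 12730 genes, called at an adjusted p under 0.05), 7 of the 9 members rose, 0 fell and 2 did not pass. Of the 7, Il33 needed an LPS library to pass the filter, which favoured its call as a rise. Over all genes tested, 18.0% rose and 16.3% fell. The median fitted LPS change of the members was log2 3.36, against -0.04 over all genes. The 2 genotypes served as the replicates of this contrast, and nothing in the labels gives separate cultures or mice within a group, so the test measures only the spread between these libraries.

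Il1b, the main secreted pyrogen of the family, stood at 5407 CPM in deficient and 5567 CPM in wild-type macrophages with LPS, against 13 CPM in deficient and 73.1 CPM in wild-type macrophages left unstimulated. Both LPS libraries lay far above both unstimulated ones, and the unstimulated pair was spread widely while the LPS pair was nearly level. The fitted LPS change was log2 7.47 ± 0.71 (standard error, edgeR adjusted p = 0.000765). In a model of LPS alone, leaving out the wild-type unstimulated library gave log2 8.74 and leaving out the deficient unstimulated library gave log2 6.20, both still called. Il1b lies at chr2:129364570-129371139 on the minus strand of GRCm38, and shares exonic bases with Il1bos on the other strand, which had at most 76 counts in a library. It ranked 15th in the deficient and 18th in the wild-type LPS library among all genes tested by CPM, against 7374th in the deficient and 2160th in the wild-type unstimulated library.

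Il1a, whose product signals both from inside and from the surface of cells, had 5190 CPM in deficient and 5511 CPM in wild-type macrophages with LPS, against 31.5 CPM in deficient and 67.0 CPM in wild-type macrophages without it. As for Il1b, the groups did not overlap by treatment, and the lowest value was that of the deficient unstimulated library. Its fitted change was log2 6.86 ± 0.37 (edgeR adjusted p = 0.000173). Il1a lies at chr2:129299610-129309972 on the minus strand, next to Il1b. Its exons share bases with Gm14023 on the opposite strand, whose counts were 5.91% of those of Il1a in the deficient and 6.38% in the wild-type LPS library, against 6.54% in the deficient and 6.57% in the wild-type unstimulated library. The strand setting of the counting is not stated, so the reads of both genes cannot be told apart.

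Il36g, a ligand of epithelia and myeloid cells that acts through Il1rl2, reached 51.3 CPM in deficient and 88.3 CPM in wild-type macrophages with LPS, against 8.54 CPM in deficient and 4.96 CPM in wild-type macrophages without it. Here the deficient library was the lower of the LPS libraries and the higher of the unstimulated ones. The fitted change was log2 3.36 ± 0.41 (edgeR adjusted p = 0.0019). Il36g lies at chr2:24186476-24193568 on the plus strand. The list of epithelial and keratinocyte markers summed to 0.908 CPM in deficient and 2.38 CPM in wild-type cells with LPS, against 9.76 CPM in deficient and 11.8 CPM in wild-type cells without it, with Krt5, Krt14 and Krt18 at 0 counts in every library. That list ran opposite to Il36g, and nearly all of its counts were those of Cdh1.

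Il33, an alarm cytokine stored in the nucleus and best known from stromal and epithelial cells, had 9.91 CPM (371 counts) in deficient and 13.7 CPM (454 counts) in wild-type macrophages with LPS. Without LPS it had 0.917 CPM (36 counts) in deficient macrophages and 0 counts in wild-type macrophages, where 3 counts, taken as the limit for a count of 0, correspond to 0.0641 CPM. It was thus the one member with an empty library. Il33 rose with LPS (edgeR adjusted p = 0.0199), and its fitted log2 change of 5.24 ± 1.23 depends on the count added to the empty library. The call was lost in a model of LPS alone (adjusted p = 0.0702), and in that model also without the wild-type LPS library (log2 4.48, adjusted p = 0.15) or the deficient LPS library (log2 4.96, adjusted p = 0.10). Without the wild-type unstimulated library the fit was log2 3.70, and without the deficient unstimulated library log2 11.84, both called. Il33 lies at chr19:29925114-29960718 on the plus strand. Fibroblast and stromal markers, 6 listed and none at 0 throughout, summed to 19.8 CPM in deficient and 17.1 CPM in wild-type cells with LPS, against 2.14 CPM in deficient and 2.52 CPM in wild-type cells without it. Most of these counts were of Pdgfrb, which had 636 counts in deficient and 496 in wild-type cells with LPS, against 32 in deficient and 57 in wild-type cells without it, while Col1a1, Col1a2 and Col3a1 had at most 18 counts in any library. The part of such cells in the Il33 values was not tested.

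Il18, whose product drives interferon-gamma in lymphocytes, was scarce. Its level was 10.3 CPM in deficient and 8.93 CPM in wild-type macrophages with LPS, against 1.89 CPM in deficient and 2.95 CPM in wild-type macrophages without it. The values separated by treatment, with smaller gaps than for the other ligands. Il18 rose by log2 2.01 ± 0.37 (edgeR adjusted p = 0.00827), and in a model of LPS alone without the deficient unstimulated library the call was lost (log2 1.67, adjusted p = 0.0624). Il18 lies at chr9:50554827-50581840 on the plus strand. The other ligands of the list gave almost nothing: Il36a (Il1f6 in GENCODE M21) had 10 counts in the deficient and 25 in the wild-type LPS library and 0 in both unstimulated ones, and Il36b and Il1f10 had 0 counts in every library. All 5 ligands that could be tested were members, and all 5 rose. Of these, Il33 needed an LPS library to pass the filter, which favoured its call as a rise, and Il36a did not pass it.

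**Figure D1:**
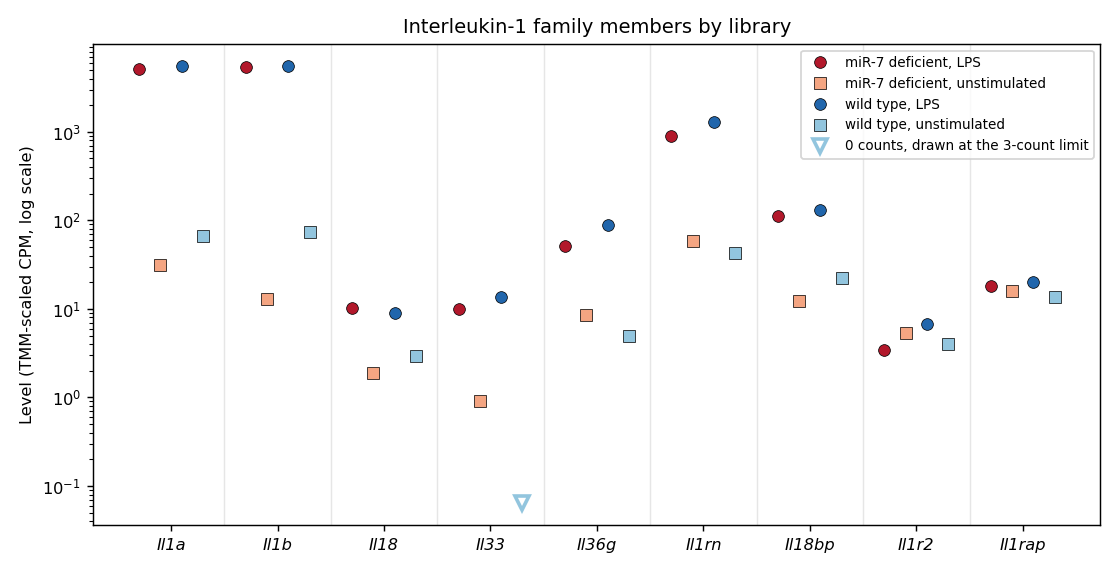
Level of each member in each library, in TMM-scaled CPM on a log axis, with 1 point per library, LPS as circles and unstimulated as squares, and no error bars because each group holds 1 library. The LPS points of Il1a and Il1b lie between 5190 and 5567 CPM in both genotypes, the unstimulated points of Il1b lie at 13 CPM in deficient and 73.1 CPM in wild-type cells, and the open triangle marks the empty Il33 library at its limit of 3 counts.

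Among the inhibitors, Il1rn, which encodes the interleukin-1 receptor antagonist, had 906 CPM in deficient and 1283 CPM in wild-type macrophages with LPS, against 58.1 CPM in deficient and 43.1 CPM in wild-type macrophages without it. Both LPS values stood above both unstimulated ones, and the deficient library was lower with LPS and higher without it, as for Il36g. Il1rn rose by log2 4.43 ± 0.31 (edgeR adjusted p = 0.000298). It lies at chr2:24336853-24351494 on the plus strand.

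Il18bp, the soluble binder of interleukin-18, had 112 CPM in deficient and 131 CPM in wild-type macrophages with LPS, against 12.2 CPM in deficient and 22.3 CPM in wild-type macrophages without it. Its deficient library was the lower one in both conditions. Il18bp rose by log2 2.88 ± 0.24 (edgeR adjusted p = 0.00052). It lies at chr7:102014885-102018690 on the minus strand and shares exonic bases with Numa1 on the opposite strand, which had 3159 counts in the deficient and 3456 in the wild-type LPS library, against 4889 in the deficient and 6434 in the wild-type unstimulated library. Numa1 thus ran opposite to Il18bp, and how far reads of one were counted for the other was not tested.

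Il1r2, the decoy receptor, had 3.47 CPM in deficient and 6.76 CPM in wild-type macrophages with LPS, against 5.28 CPM in deficient and 3.98 CPM in wild-type macrophages without it. The LPS and unstimulated values overlapped, with both the lowest and the highest in LPS libraries. Its fitted LPS change was log2 0.08 ± 0.44 (edgeR adjusted p = 0.899), and with libraries scaled by their total counts it was -0.32. It lies at chr1:40074079-40125231 on the plus strand. The remaining inhibitors of the list were too low to test: Sigirr, a receptor that dampens family signalling, had 16 counts in each LPS library, against 28 in the deficient and 73 in the wild-type unstimulated library, and Il36rn had 0 counts in every library. Of the 3 inhibitors tested, 2 rose and 1 did not pass.

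Il1rap, the shared second chain of the receptors for interleukin-1, interleukin-33 and interleukin-36, had 18.1 CPM in deficient and 19.9 CPM in wild-type macrophages with LPS, against 16.0 CPM in deficient and 13.7 CPM in wild-type macrophages without it. The 4 values lay close together, and its fitted LPS change was log2 0.36 ± 0.22 (edgeR adjusted p = 0.261), or -0.05 under scaling by total counts. It lies at chr16:26581704-26730117 on the plus strand and shares exonic bases with Gm20319, which had at most 67 counts in a library.

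The other receptor genes did not pass the LPS test either: of 7 listed, 4 were tested, and 0 rose and 0 fell in edgeR. At an unadjusted p under 0.05 there were 2, Il1r1 and Il18rap, where 44.9% of all genes passed. DESeq2's Wald test called 1, Il18rap, lower with LPS, where it called 15.2% of all genes lower. Il1r1, the signalling receptor for interleukin-1, had 6.25 CPM in deficient and 6.61 CPM in wild-type macrophages with LPS, against 11.1 CPM in each unstimulated library (log2 -0.79 ± 0.27, edgeR adjusted p = 0.0644). Il1rl2, the receptor of Il36g, was the most abundant of them, at 63.8 CPM in deficient and 76.5 CPM in wild-type macrophages with LPS, against 79.7 CPM in deficient and 94.6 CPM in wild-type macrophages without it. Il18rap, the second chain of the interleukin-18 receptor, had 0.214 CPM in deficient and 1.96 CPM in wild-type macrophages with LPS, against 4.71 CPM in deficient and 4.47 CPM in wild-type macrophages without it (edgeR adjusted p = 0.0545). Its partner Il18r1 had at most 21 counts in any library. Il1rl1, the receptor for interleukin-33, had 0 counts in deficient and 49 in wild-type macrophages with LPS, against 126 in deficient and 36 in wild-type macrophages without it. Its values ran in opposite directions in the genotypes, and its LPS fit was log2 -1.97 ± 1.96 (edgeR adjusted p = 0.48). Il1rapl1 and Il1rapl2 had 0 counts throughout.

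Of the 12 genes listed for processing and release of the ligands, 9 rose with LPS, 1 fell and 2 did not pass, with a median fitted change of log2 1.20. The shares over all genes, for this list and the next, were 18.0% higher and 16.3% lower. Casp1, the protease that cuts the precursors of interleukin-1 beta and interleukin-18, had 287 CPM in deficient and 417 CPM in wild-type macrophages with LPS, against 56.6 CPM in deficient and 73.9 CPM in wild-type macrophages without it (log2 2.42 ± 0.19, edgeR adjusted p = 0.000437). The inflammatory caspase Casp4, which senses cytosolic LPS, rose by log2 3.77 ± 0.27 (adjusted p = 0.000309) and the inflammasome sensor Nlrp3 by log2 2.56 ± 0.25 (adjusted p = 0.000792). Pycard, the adaptor that joins sensors to caspase-1, had 38.2 CPM in deficient and 33.9 CPM in wild-type macrophages with LPS, against 67.7 CPM in deficient and 85.8 CPM in wild-type macrophages without it, and fell (log2 -1.08 ± 0.22, edgeR adjusted p = 0.0117). Of the 18 genes listed for signalling from the receptors, 7 rose, 2 fell and 9 did not pass, with a median of log2 0.57. Genes that rose included Nfkbiz, an atypical inhibitor protein of NF-kB (log2 4.19 ± 0.27, adjusted p = 0.00023), the ubiquitin ligase Peli1 (2.95 ± 0.21, adjusted p = 0.000334) and Irak3, a kinase-like protein that restrains the pathway (2.31 ± 0.21, adjusted p = 0.000644). Those that fell were Peli2 (log2 -2.22 ± 0.22) and the kinase Irak1 (log2 -0.72 ± 0.19), and Tollip, an adaptor and the most abundant of the list, did not pass (log2 -0.20 ± 0.21). For genotype, 0 genes of both lists were called by edgeR, which called 0.55% of all genes, or by DESeq2's Wald test, which called 1.79%. In edgeR, 1 gene of each list had an unadjusted p under 0.05, near the 7.6% of all genes.

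Within each genotype the response was read from 1 pair of libraries, with an exact 95% interval that covers counting error only, and with no test, because neither library has a replicate. In the deficient pair, 7 members had an interval that lay entirely above 2-fold higher with LPS and 0 an interval entirely below 2-fold lower, where 12.5% of all genes were higher and 11.7% lower by that measure. In the wild-type pair, likewise 7 were higher and 0 lower, where 14.8% of all genes were higher and 13.3% lower. The 7 were the same genes as those called by edgeR in both pairs. Il1b was 416-fold higher with LPS in deficient (381 to 455) and 76.2-fold higher in wild-type macrophages (73.7 to 78.8). Il1a was 165-fold higher in deficient (156 to 174) and 82.2-fold higher in wild-type macrophages (79.3 to 85.2). These ligands thus had the higher ratio in the deficient pair, and the difference sat in the unstimulated libraries. Il18 was 5.45-fold higher in deficient (4.24 to 7.09) and 3.03-fold higher in wild-type macrophages (2.47 to 3.73), and Il18bp was 9.24-fold higher in deficient (8.41 to 10.2) and 5.85-fold higher in wild-type macrophages (5.47 to 6.27).

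The order was the other way round for Il36g, Il1rn and Il33. Il36g was 6.01-fold higher with LPS in deficient (5.34 to 6.77) and 17.8-fold higher in wild-type macrophages (15.6 to 20.4). Il1rn was 15.6-fold higher in deficient (14.9 to 16.3) and 29.7-fold higher in wild-type macrophages (28.4 to 31.1). Il33 was 10.8-fold higher in deficient macrophages (7.66 to 15.7) and at least 214-fold higher in wild-type macrophages, the bound being set by 3 counts in the empty library. The exact interval, which also covers the counting error of the LPS library, began at 173-fold. For Il1r2 the ratios pointed in opposite directions, 0.658 in deficient (0.524 to 0.823) and 1.70 in wild-type macrophages (1.39 to 2.08). The ratio of Il1rap was 1.14 in deficient (1.02 to 1.27) and 1.46 in wild-type macrophages (1.30 to 1.62).

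**Figure D2:**
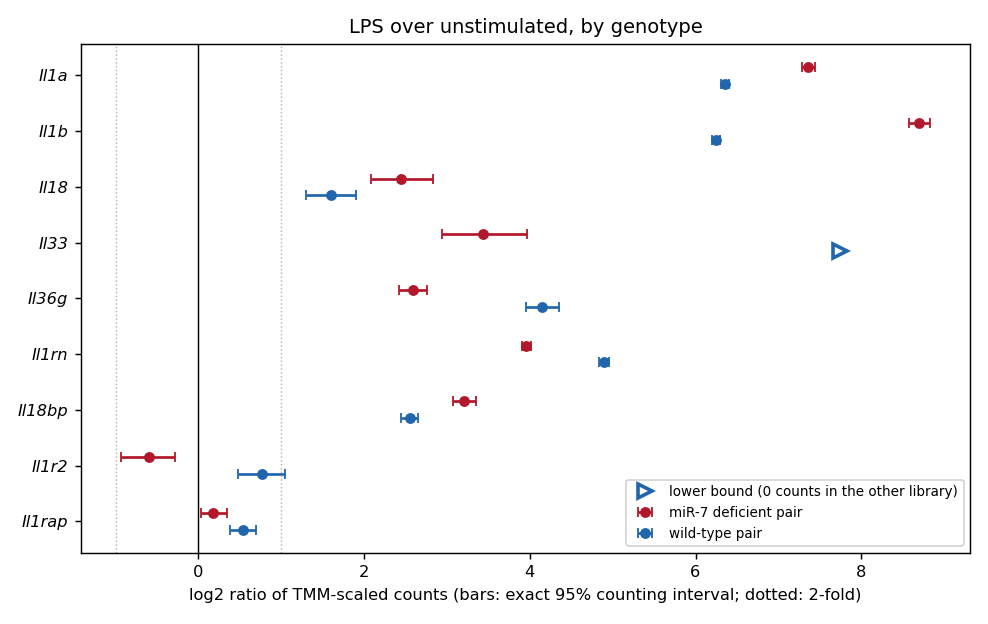
Log2 ratio of LPS over unstimulated TMM-scaled counts for each member, deficient pair above wild-type pair, with exact 95% counting intervals as bars and 2-fold marked by dotted lines. The deficient point lies to the right of the wild-type point for Il1a, Il1b, Il18 and Il18bp and to the left for Il33, Il36g, Il1rn, Il1r2 and Il1rap, and the open triangle for Il33 is a lower bound.

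The size of these gaps was expressed as the deficient minus the wild-type log2 LPS ratio, which has no replicate and was not tested. Beyond 2-fold by its whole counting interval were Il1b, higher in the deficient pair at log2 2.45 (2.31 to 2.58), and Il36g and Il33, lower. By that measure 2.26% of all genes were higher and 3.82% lower in the deficient pair. Il36g gave log2 -1.57 (-1.82 to -1.31). The Il33 value, log2 -6.91 (-10.94 to -2.88), rests on 0.5 counts added to the empty library and was -3.75 with 5 counts added. Il1r2 gave log2 -1.37 (-1.79 to -0.94), Il1a 1.0 (0.91 to 1.10) and Il1rn -0.93 (-1.02 to -0.84). Il18 gave log2 0.84 (0.38 to 1.31) and Il18bp 0.66 (0.49 to 0.83), with the sign of Il1a and Il1b, and Il1rap gave -0.36 (-0.58 to -0.14). The values of Il1a and Il1b rest on the wild-type unstimulated library. With 1.31% of the wild-type LPS counts taken out of that library, they were -11.59 for Il1a and -10.27 for Il1b. Both genes then had 0 counts left there, so the signs of these values follow from the emptied library and their sizes rest on the 0.5 counts added.

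Between genotypes, no member was called in the fit to all 4 libraries, where 0.55% of all genes were. At an unadjusted p under 0.05 the count of members was also 0, where 7.6% of all genes passed, and DESeq2's Wald test called 0, where it called 1.79% of all genes. With 9 members and such shares over all genes, a count of 0 says little about the family. This p measures how alike the LPS and unstimulated genotype pairs are, not the spread among mice. The lowest was that of Il18bp (log2 -0.54 ± 0.23, unadjusted p = 0.0541, edgeR adjusted p = 0.672), followed by Il1b (log2 -1.25 ± 0.58, adjusted p = 0.732) and Il1a (log2 -0.58 ± 0.29, adjusted p = 0.769).

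In the unstimulated pair, 1 member was higher and 1 lower in deficient cells, with the entire interval past 2-fold, where 2.82% of all genes were higher and 1.41% lower. The lower member was Il1b, with 510 counts in deficient and 3418 in wild-type macrophages, a ratio of 0.178 (0.162 to 0.195). The higher one was Il33, with 36 counts in deficient and 0 in wild-type macrophages, at least 14.3-fold higher by the limit of 3 counts, with an exact interval that began at 11-fold. Il1a stood at a ratio of 0.471 (0.44 to 0.503), Il18bp at 0.545 (0.488 to 0.608) and Il18 at 0.639 (0.475 to 0.854), all lower in deficient cells. Among the macrophage markers of the same pair, Itgam had 291 CPM in deficient and 965 CPM in wild-type macrophages and Fcgr1 23.8 CPM in deficient and 52.6 CPM in wild-type macrophages, and their part in these ratios was not tested. On the other side were Il36g at 1.72 (1.45 to 2.04), Il1rn at 1.35 (1.27 to 1.43), Il1r2 at 1.33 (1.08 to 1.63) and Il1rap at 1.16 (1.04 to 1.30).

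In the LPS pair, 0 members were higher and 0 lower by more than 2-fold, where 2.58% of all genes were higher and 3.04% lower. Il1b stood at 0.971 (0.965 to 0.977) and Il1a at 0.942 (0.936 to 0.948), deficient over wild type. The lowest ratios were those of Il1r2 at 0.514 (0.411 to 0.641), Il36g at 0.581 (0.548 to 0.615), Il1rn at 0.707 (0.697 to 0.717) and Il33 at 0.723 (0.629 to 0.832). Il18 at 1.15 (0.987 to 1.34) and Il1rap at 0.909 (0.816 to 1.01) had intervals that held equality. Il36g, Il1rn, Il1r2 and Il33 were thus above wild type without LPS and below it with LPS, and Il1a, Il1b and Il18bp were below it in both. Each genotype ratio and each LPS ratio of a pair share libraries, so they are not separate evidence.

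**Figure D3:**
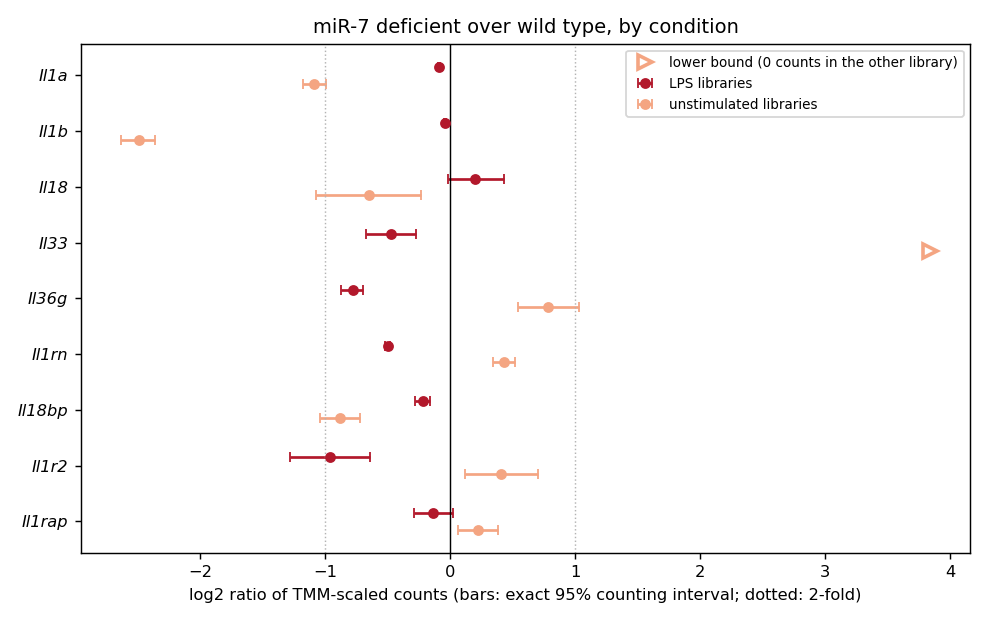
Log2 ratio of deficient over wild-type TMM-scaled counts for each member, LPS libraries above unstimulated libraries, with exact 95% counting intervals as bars and 2-fold marked by dotted lines. Without LPS, Il1b lies at -2.49 and Il33 has only a lower bound to the right of the 2-fold line, while with LPS Il1a and Il1b lie at -0.09 and -0.04.

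The resting level of each member was also set against its LPS level in the same genotype. Resting Il1b was 0.24% of the LPS level in deficient and 1.31% in wild-type macrophages, and resting Il1a was 0.608% in deficient and 1.22% in wild-type macrophages. For the other induced members the resting levels were 16.7% in deficient and 5.61% in wild-type macrophages for Il36g, 6.41% in deficient and 3.36% in wild-type for Il1rn, 10.8% in deficient and 17.1% in wild-type for Il18bp, and 18.3% in deficient and 33.0% in wild-type for Il18. Resting Il33 was 9.26% in deficient and at most 0.468% in wild-type macrophages.

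The similar percentages of Il1a and Il1b in wild-type cells were set beside those of 2 genes with at least 100 CPM in both LPS libraries and a deficient resting level under 0.1% of the LPS level, whose wild-type resting levels were 0.939% and 1.69% of the LPS level. When the wild-type unstimulated library was lowered by the median of these, 1.31%, of the scaled wild-type LPS values, Il1a and Il1b had 0 counts left there, and the genotype difference of both without LPS then pointed the other way. The size of the share fixed this outcome, because the wild-type resting percentages were 1.22% for Il1a and 1.31% for Il1b. A share of 0.939%, below both percentages, was not tried. At 1.31%, Il1rn kept 1230 of 2018 counts, Il36g 178 of 232 and Il18bp 964 of 1044. For Il33 that share would have amounted to 8.42 counts in a library that held 0. Whether any wild-type LPS reads were counted in the unstimulated library was not tested.

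The balance of inhibitor and ligand transcripts was read in each library as a ratio of counts per kilobase of exon. Il1rn over Il1b was 0.0577 in deficient (0.0571 to 0.0584) and 0.0794 in wild-type macrophages with LPS (0.0785 to 0.0802), against 1.54 in deficient (1.40 to 1.70) and 0.203 in wild-type macrophages without it (0.192 to 0.215). The deficient unstimulated library held more antagonist than Il1b transcript per kilobase, the other 3 libraries held less as counted, and the LPS libraries held the least. With 1.31% of the wild-type LPS counts taken out, the wild-type unstimulated library had 1230 counts of Il1rn and 0 of Il1b and Il1a left, so the place of that library in this order depends on those counts and no ratio can be given for it. As counted, the ratio of Il1rn over Il1b was multiplied with LPS by 0.0375 in deficient and by 0.39 in wild-type macrophages. The wild-type factor depends on those same counts. Il1rn over Il1a followed the same order of libraries, with 0.0623 in deficient and 0.083 in wild-type macrophages with LPS, against 0.657 in deficient and 0.229 in wild-type macrophages without it. With the longest transcript as the length, Il1rn over Il1a in the deficient unstimulated library was 1.42, above 1.

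The interleukin-18 pair behaved differently. Il18bp over Il18 was 3.72 in deficient (3.35 to 4.14) and 4.98 in wild-type macrophages with LPS (4.43 to 5.62), against 2.20 in deficient (1.72 to 2.85) and 2.58 in wild-type macrophages without it (2.16 to 3.10). As counted, the binding protein's transcript exceeded that of its ligand in every library, and LPS multiplied the ratio by 1.70 in deficient and by 1.93 in wild-type macrophages. Numa1, which shares exonic bases with Il18bp, had 1025% of the Il18bp counts in the deficient and 616% in the wild-type unstimulated library. How far its reads entered these ratios was not tested. By levels per kilobase of exon with LPS, the first was Il1b (2835 CPM per kb in deficient and 2919 in wild-type macrophages), followed by Il1a (2629 in deficient and 2792 in wild-type) and Il1rn (164 in deficient and 232 in wild-type). Il18bp (37.1 in deficient and 43.2 in wild-type) and Il36g (31.1 in deficient and 53.6 in wild-type) came next and changed places between the genotypes. The lowest were Il18 (9.97 in deficient and 8.66 in wild-type), Il33 (3.43 in deficient and 4.75 in wild-type), Il1r2 (1.82 in deficient and 3.54 in wild-type) and Il1rap (1.6 in deficient and 1.76 in wild-type). Between neighbours in this order, the ranges spanned by the genotypes overlapped for Il18bp and Il36g and for Il33 and Il1r2, and did not overlap for the others. This order holds for the merged exons as length. With the longest transcript as length, the last 3 were Il33 (3.89 CPM per kb in deficient and 5.38 in wild-type), Il1rap (4.01 in deficient and 4.41 in wild-type) and Il1r2 (2.45 in deficient and 4.76 in wild-type), and their ranges all overlapped.

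**Figure D4:**
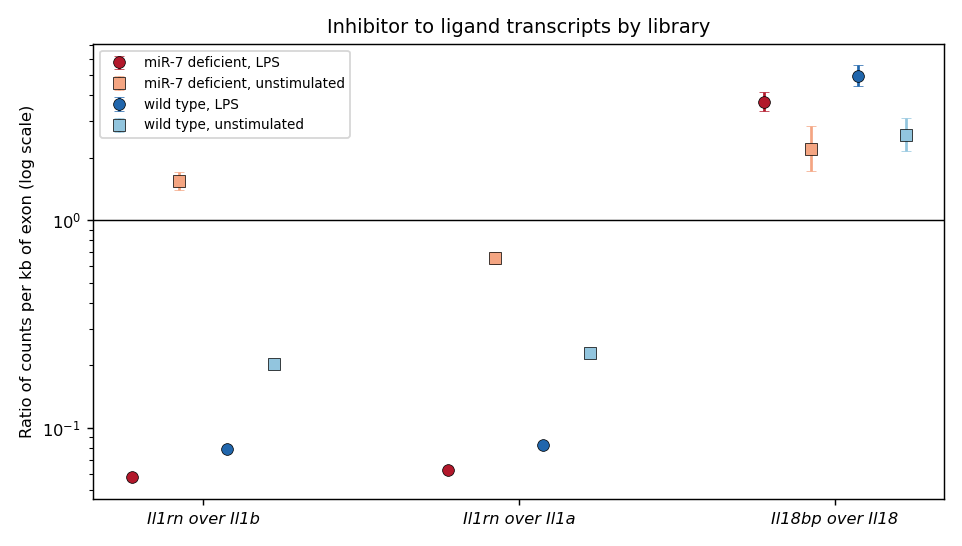
Ratio of inhibitor to ligand counts per kilobase of exon in each library on a log axis, with exact 95% intervals and a line at equality. As counted, Il1rn over Il1b lies at 1.54 in the deficient unstimulated library and at 0.203 in the wild-type unstimulated library, where the point rests on 3418 counts of Il1b, and Il18bp over Il18 lies above 1 in every library. The part of Numa1 reads in the Il18bp counts was not tested.

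The genes most like Il1a, Il1b, Il1rn and Il33 were found among 7875 genes with a mean of at least 10 CPM, by the distance between log2(CPM + 0.5) profiles centred on their means over the 4 libraries. For Il1b they were Il6, a pyrogenic cytokine (distance 0.43), the interferon-induced GTPase Tgtp2 (0.45), Slfn4 of the Schlafen family (0.57) and the chemokine Cxcl10 (0.59). Il6 had 374 CPM in deficient and 369 CPM in wild-type macrophages with LPS, against 0.153 CPM in deficient and 3.46 CPM in wild-type macrophages without it, again level with LPS and lower in the deficient library at rest. Il6 was among the 2 genes from which the share of 1.31% was derived, so its resting values are not separate evidence on that gap. For Il1a they were interferon-induced Ifi44 (0.21), the neutrophil attractant Cxcl3 (0.22), Slfn1 (0.23) and another such chemokine, Cxcl1 (0.26), while Il1b lay 1.14 from Il1a. Cxcl3 had 2142 CPM in deficient and 2042 CPM in wild-type macrophages with LPS, against 14.2 CPM in deficient and 26.2 CPM in wild-type macrophages without it.

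For Il1rn the nearest genes were Slx4ip (0.19), the syntaxin gene Stx11 (0.31), Serpinb2, an inhibitor of plasminogen activators (0.37), and Alpk2 (0.43). For Il33 they were Ptx3, a secreted pattern recognition protein (0.25), Nt5c3 (0.57), H2-Q4 (0.64) and the chemokine Ccl17 (0.66). Ptx3 had 384 CPM in deficient and 436 CPM in wild-type macrophages with LPS, against 43.5 CPM in deficient and 17.7 CPM in wild-type macrophages without it. The profile of Il33 with its empty library includes the 0.5 CPM added, so its distances depend on that choice. So does the distance of Il6 from Il1b, because the deficient unstimulated value of Il6, 0.153 CPM, was below the 0.5 CPM added. Likeness over 4 libraries describes these values only.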

How the data were processed

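Polyadenylated RNA of 4 bone marrow-derived macrophage libraries was sequenced on a HiSeq 2000, with base calls from Casava 1.8.2, adapter trimming by Cutadapt and alignment by TopHat 2.0.13 with Bowtie 2, per the series design text. The submitters' processing notes name HTSeq and the mm8 build. For every library the authors deposited a table of unnormalized read counts by gene. The sources used here give no strand setting, no rule for multiply mapped reads and no annotation release. Library totals ran between 33937823 and 42074624 counts.

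IDs without versions were matched to GENCODE M21 (52403 of 52550, 99.7%), and coordinates are those of the M21 gene on GRCm38, whatever build the reads were aligned to. Counts were scaled by TMM (factors 0.846 to 1.16). Genes with at least 1 CPM in at least 2 libraries, by library totals without the TMM factors, were kept. They were fitted with edgeR 4.0.16 (R 4.3.3) as genotype plus LPS, which leaves 1 residual degree of freedom. The p-values were adjusted by Benjamini-Hochberg. Standard errors are the fitted log2 change over the square root of F. The code was tested on simulated data. Pairs of libraries were compared by exact Clopper-Pearson 95% intervals, and folds against 0 counts used a floor of 3 counts per library. Both cover only counting error, because each group has 1 library, and may understate it, because PCR copies are not independent molecules. Promoter and microRNA sequences are from RefSeq (GRCm38.p6), and the Il33 site is from GRCm38 with GENCODE M21.

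Members and lists were chosen with earlier results of these data known. All 9 members were named, as was every ligand, inhibitor and receptor of the lists with a value. From the lists of processing and signalling the 3 largest called LPS changes, the 2 highest means and any gene called for genotype were named. The 4 genes most like each of Il1a, Il1b, Il1rn and Il33 were also named. Pycard, Peli2 and Irak1 were named after their values were seen. Alternatives were DESeq2 1.42.0 size factors and Wald test, total counts, no filter, a CPM of at least 10, a model with 1 factor, leaving out each library from it, a share of the wild-type LPS counts taken out of the wild-type unstimulated library, 5 counts added, and other lengths and untranslated regions.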

Additional observations from a re-analysis of the deposited data

Results flagged for a closer look

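For Il1r2 the pairs of libraries moved in opposite directions with LPS. Its log2 ratio of LPS over unstimulated was -0.60 in deficient and 0.77 in wild-type macrophages, on 130 and 207 counts in the deficient pair and 224 and 186 counts in the wild-type pair. Il1rl1, the receptor for interleukin-33, did the same, with 0 counts in deficient macrophages with LPS against 126 without it, and a log2 ratio of 0.94 in wild-type macrophages. With 1 library per group, neither difference was tested.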

How the results depend on the processing

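No paired analysis was possible because each group has 1 library, beyond the fit with genotype as a term, which compares LPS with unstimulated cells within each genotype. Il1a, Il1b, Il36g, Il1rn and Il18bp were called for LPS under all 11 alternatives, Il18 lost its call under 1 and Il33 under 3 of 10, and no member was called for genotype under any. Leaving out 1 library (from a model with that factor alone, where the lone library of a group is assumed to vary like the others) gave 1077 to 1680 genes higher and 546 to 1541 lower with LPS, against 2297 and 2075 with all 4 libraries, and left 6 to 7 members called. Scaling by total counts moved the log2 LPS ratio of every gene by -0.38 in the deficient and -0.44 in the wild-type pair, and gave 1550 genes higher and 3842 lower, a fitted LPS change of -0.32 for Il1r2 and -0.05 for Il1rap, genotype fits of 0.02 for Il36g and 0.00 for Il1rn, a log2 deficient over wild-type ratio with LPS of 0.03 for Il1b and a deficient LPS ratio of -0.19 for Il1rap. Without 1 library the LPS fit of Il1r2 ran between -0.40 and 0.57. The genotype model called 70 genes, against 44 with DESeq2 size factors, 30 with no filter, 228 with DESeq2's Wald test, 30 after the share of 1.31% was taken out, and 0 in the model of genotype alone or without any 1 library (0 to 0). With the share taken out, genotype fits were 3.75 for Il1a, 3.19 for Il1b, 0.14 for Il36g and 0.30 for Il1rn, and the deficient minus wild-type LPS effects were -11.59 for Il1a and -10.27 for Il1b. Without LPS 4 members were then higher and 0 lower beyond 2-fold, Il1a and Il1b among the higher ones because 0 counts were left. That count was not set against all genes in this setting. That share rests on 2 genes. It left 0 counts of Il1a and Il1b in the wild-type unstimulated library, so the signs of their values follow from the share chosen and the sizes depend on added counts. DESeq2 size factors gave 2 lower members beyond 2-fold without LPS. In the model of genotype alone Il18 stood at 0.04 and Il33 at -0.34. Without 1 library the genotype fits, all uncalled and with LPS counted as spread, ran between -6.49 and 5.30 for Il1a, -7.78 and 5.23 for Il1b, -1.67 and 1.06 for Il18, -2.91 and 10.81 for Il33, -2.47 and 2.61 for Il36g, -3.53 and 3.50 for Il1rn, -2.67 and 1.5 for Il18bp, -0.65 and 0.15 for Il1r2, and -0.25 and 0.33 for Il1rap. With the longest transcript as length, Il1rn over Il1b was 0.089 in deficient and 0.122 in wild-type cells with LPS, against 2.37 in deficient and 0.313 in wild-type cells without it, and Il1rn over Il1a was 0.135 in deficient and 0.18 in wild-type cells with LPS, against 1.42 in deficient and 0.497 in wild-type cells without it. Merging all untranslated regions left 1 member with a seed match of at least 7 bases. Causes were not tested. Il33, Il1r2 and Il18 had at most 454 counts in a library.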
